A study of Mus musculus with 6 samples.

Results

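The gene set comprised Spp1, Gpnmb, Fn1, Tgfbi, Thbs1, Vegfa, Pgf, Tgfb1, Inhba and Pf4, which is 10 of the 32285 genes counted. These genes were chosen by their levels in myeloid cells of these same libraries, so their levels and their differences from the control library are given as a description. They were read in single-cell RNA sequencing libraries of mouse ovarian tumors, in which UMIs (molecular tags that count captured mRNA molecules) were summed over cells sorted into classes by marker genes. All 6 libraries came from female C57BL/6 mice that carried KPCA ovarian cancer cells in the ovarian bursa. The mice were 6 to 8 weeks old when these cells were implanted and were killed on day 30. The control mouse received solvent and rat IgG, and the other 5 mice received 2DG (2-deoxy-D-glucose, a sugar analog that disturbs glycolysis and N-glycan assembly), 2FF (a fluorinated fucose that blocks fucosylation), anti-PD-L1 antibody, 2DG plus anti-PD-L1, or 2FF plus anti-PD-L1. 2DG was injected every 2 days from day 9, anti-PD-L1 was given as 2 doses a week for 3 weeks after day 9, and 2FF was given by gavage every 2 days to mice whose injected cells had already been exposed to it. Each group was 1 library from 1 mouse, and the 2DG and 2FF arms share their control and anti-PD-L1 libraries. Lymph node is the tissue named in the sample labels, and the deposited design text mentions age groups, whereas the study's methods describe tumors.

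Tumor-infiltrating monocytes arrive from blood, and some of them become macrophages that remodel matrix and vessels. Osteopontin (Spp1), fibronectin (Fn1), thrombospondin-1 (Thbs1) and TGFBI (Tgfbi) are secreted proteins that bind integrins or matrix, and GPNMB is a glycoprotein of lysosomes and the cell surface. VEGF-A (Vegfa) and placental growth factor (Pgf) are ligands of VEGF receptors, TGF-beta 1 (Tgfb1) and activin A (a dimer of the Inhba product) are ligands of serine/threonine kinase receptors, and platelet factor 4 (Pf4) is the chemokine CXCL4. Thrombospondin-1 and CXCL4 are known to restrain angiogenesis, and the VEGF family to drive it.

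The upstream stretches of Spp1, Gpnmb, Vegfa and Inhba are shown because these members differed most between libraries or were detected in the same cells, and because their windows overlap no annotated exon of the gene. Each is the 250 bases before a RefSeq transcript start in GRCm38.p6, written along the gene's own strand. The Spp1 window is chr5:104434861-104435110 on the plus strand, the Gpnmb window chr6:49036268-49036517 on the plus strand, the Vegfa window chr17:46032378-46032627 on the minus strand and the Inhba window chr13:16011601-16011850 on the plus strand. Capitals mark the 5 letters of the hypoxia core GCGTG, read here on the opposite strand.
Spp1: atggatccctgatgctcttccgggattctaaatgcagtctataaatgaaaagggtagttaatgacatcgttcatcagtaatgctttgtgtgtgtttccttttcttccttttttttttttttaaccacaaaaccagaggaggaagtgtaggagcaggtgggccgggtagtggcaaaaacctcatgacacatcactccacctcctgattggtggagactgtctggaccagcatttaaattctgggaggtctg
Gpnmb: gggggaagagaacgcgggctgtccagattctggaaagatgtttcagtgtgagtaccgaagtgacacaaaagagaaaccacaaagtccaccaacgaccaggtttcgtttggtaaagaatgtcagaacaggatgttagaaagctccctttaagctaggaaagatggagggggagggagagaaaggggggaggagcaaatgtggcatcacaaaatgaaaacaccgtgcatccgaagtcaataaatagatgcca
Vegfa: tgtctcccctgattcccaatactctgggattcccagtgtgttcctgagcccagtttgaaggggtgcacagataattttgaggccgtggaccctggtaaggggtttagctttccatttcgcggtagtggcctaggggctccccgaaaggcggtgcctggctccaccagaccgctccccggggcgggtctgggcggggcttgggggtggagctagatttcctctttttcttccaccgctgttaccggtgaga
Inhba: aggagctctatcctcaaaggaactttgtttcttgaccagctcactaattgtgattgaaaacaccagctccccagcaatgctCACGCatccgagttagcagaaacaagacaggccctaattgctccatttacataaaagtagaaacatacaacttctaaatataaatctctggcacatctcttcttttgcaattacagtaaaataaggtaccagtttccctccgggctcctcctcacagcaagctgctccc
Promoters of 8 of the 10 members were matched, and Fn1 and Thbs1 were not. Both strands of these windows were searched for the hypoxia cores ACGTG and GCGTG, the E-boxes CACGTG and CATGTG, and the AP-1 motif TGACTCA or TGAGTCA, where CACGTG also contains ACGTG. Of 32851 mouse promoter windows of the same length, 16.6% held ACGTG, 28.2% held GCGTG, 6.02% held CACGTG, 12.3% held CATGTG and 4.46% held the AP-1 motif. The windows of Spp1, Gpnmb and Vegfa printed here held none of them, and that of Inhba held 1 GCGTG, at bases -169 to -165 from the start. A GCGTG was also present in the windows of Tgfb1, Tgfbi and 1 of the 2 Pgf starts, and a second Vegfa start held both ACGTG and GCGTG. Annotated exons of the gene itself covered 63 of the 250 bases in the Tgfbi window and all 250 in that Pgf window. In that second Vegfa window they covered 218 bases, and 67 bases were coding, so it is not purely upstream sequence. These matches are a description of the letters only. In GENCODE M21 on the same build, Spp1 spans chr5:104435118-104441050 and Pf4 chr5:90772435-90773383, both on the plus strand, Gpnmb spans chr6:49036546-49070929 (plus), Inhba chr13:16011851-16031621 (plus) and Vegfa chr17:46016993-46032369 (minus). Fn1 lies at chr1:71585520-71653200 (minus), Tgfbi at chr13:56609523-56639562 (plus), Thbs1 at chr2:118111876-118127133 (plus), Pgf at chr12:85166635-85177790 (minus) and Tgfb1 at chr7:25687002-25705077 (plus). All UMIs of a gene were counted together, so isoforms were not told apart.

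Levels are CPM, counts of a gene per 1000000 UMIs of the class. After filtering, 7703 to 9222 cells were kept per library, from 61859753 to 73885214 UMIs. Between 13.6% and 23.8% of cells were left without a class. The gates held 1130 to 1962 monocytes and 1408 to 2074 macrophages in each library, and each of these classes had all 8 of its markers detected. The control library stood apart in its makeup: it held 3017 neutrophils against 255 to 472 in the other 5 libraries, and 413 T cells against 1905 to 2944. Its monocytes were also more deeply sampled (median of 10499 UMIs per cell against 6396 to 8132), and 28.1% of them had a UMI of Ace or Treml4, which mark non-classical monocytes, against 39.0% to 58.1% elsewhere. Neutrophil markers summed to 949 CPM in control monocytes and 283 to 669 CPM in those of the other libraries, and the part of these differences in the results was not tested. Only 23 cells in all passed the keratin-based tumor gate, so tumor cells entered no comparison. Between 12 and 27 cell barcodes were shared by any pair of libraries, where random draws from the 10x barcode list would share 8.85 to 12.3. Intervals are 95% and cover counting error only: exact Poisson for a CPM, exact conditional binomial for a ratio and Clopper-Pearson for a share. With 1 mouse per group there is no replicate spread, and no difference between libraries could be tested.

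Spp1 was higher in macrophages than in monocytes or neutrophils of every library, and highest in the control library within all 3 classes. In macrophages Spp1 stood at 3216 CPM (interval 3189 to 3243) in the control library, 1006 after 2DG, 1425 after 2FF, 1120 after anti-PD-L1, 678 after 2DG with anti-PD-L1 and 1493 after 2FF with anti-PD-L1. In monocytes it stood at 2650 CPM in the control library, 249 after 2DG, 298 after 2FF, 377 after anti-PD-L1, 224 after 2DG with anti-PD-L1 and 789 after 2FF with anti-PD-L1. The spread between libraries was therefore wider in monocytes, where the control level was 3.36-fold (3.30 to 3.43) above that of 2FF plus anti-PD-L1 and 11.8-fold (11.4 to 12.3) above that of 2DG plus anti-PD-L1. In macrophages the same 2 ratios were 2.15-fold (2.12 to 2.19) and 4.74-fold (4.65 to 4.84).

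The share of cells with an Spp1 UMI was also highest in the control library. In monocytes this share was 64.8% (62.4% to 67.2%) in the control library and 12.4% to 30.8% in the others, and in macrophages 78.3% (76.1% to 80.4%) against 45.7% to 60.7%. With every cell thinned to 1000 UMIs, the monocyte shares were 42.9% in the control library, 16.9% after 2FF with anti-PD-L1 and 5.94% to 9.25% in the remaining 4, with 2 to 26 shallower monocytes left out per library. T cells, taken as a reference for free RNA although activated T cells can express Spp1, had a UMI in 24.2% of cells in the control library and in 7.98% to 15.4% of cells elsewhere, at median depths of 5678 to 7516 UMIs, or in 8.16% and 1.84% to 4.79% at 1000 UMIs per cell. B cells had one in 21.2% of control cells and in 2.91% to 5.92% elsewhere, at median depths of 4637 to 6125 UMIs. Spp1 in T cells was 313 CPM in the control library and 55.6 to 131 CPM in the others, so the reference level moved with the result, and its part in the result was not tested. With the T cell level of each library subtracted, the monocyte log2 ratios to control ran from -3.92 to -1.73.

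Gpnmb was sparse in all classes, and the control library held the highest level in each of the 3 main ones. In macrophages it was 32.1 CPM in the control library, 5.36 after 2DG, 5.26 after 2FF, 10.4 after anti-PD-L1, 4.55 after 2DG with anti-PD-L1 and 7.55 after 2FF with anti-PD-L1. Summed over cells, neutrophils carried more of it than macrophages in every library, with 74.1 CPM (70.0 to 78.4) in the control library and 10.2 to 39.5 CPM elsewhere. After 2DG this order rested largely on a single neutrophil, which held 22 of the 26 Gpnmb UMIs in that class. Fewer UMIs still were counted in neutrophils after 2FF alone and after 2DG with anti-PD-L1, so the order is not firm there. In monocytes the control level of 32.2 CPM was 2.81-fold (2.38 to 3.34) above that of 2FF plus anti-PD-L1 and 22.9-fold (12.98 to 44.6) above that of 2DG, where only 12 UMIs of Gpnmb were counted. Only 9.30% of control macrophages and 6.70% of control neutrophils had a Gpnmb UMI, against 1.94% of control T cells.

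In macrophages Fn1 and Tgfbi stayed within 2-fold of the control, Fn1 below it and Tgfbi above it, whereas Fn1 in monocytes spanned 3.84-fold. Fn1, which encodes fibronectin, was 2918 CPM in control macrophages and 2028 to 2867 CPM in the other libraries, a range of less than 2-fold. In monocytes Fn1 was 2665 CPM in the control library, 983 after 2DG, 821 after 2FF, 1186 after anti-PD-L1, 694 after 2DG with anti-PD-L1 and 1023 after 2FF with anti-PD-L1. Tgfbi, a matrix protein gene named for its response to TGF-beta, was the one member that was lowest in control macrophages, at 1097 CPM against 1794 to 2058 CPM. Its ratios to control in macrophages were 1.63 to 1.88, below 2-fold. In monocytes the order of Tgfbi was the other way round, with 1504 CPM in the control library and 1039 to 1295 CPM elsewhere.

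Thbs1 was 2.42-fold to 4.46-fold higher in control monocytes and macrophages than in those of treated libraries. In monocytes it was 1967 CPM in the control library, 537 after 2DG, 470 after 2FF, 591 after anti-PD-L1, 652 after 2DG with anti-PD-L1 and 813 after 2FF with anti-PD-L1. In macrophages the control level was 1324 CPM and the others 297 to 454 CPM, so that the ratio of control to treated ran from 2.91 (2.84 to 2.99) to 4.46 (4.33 to 4.59). Neutrophils held 1118 CPM in the control library and 429 to 851 CPM elsewhere.

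**Figure D1:**
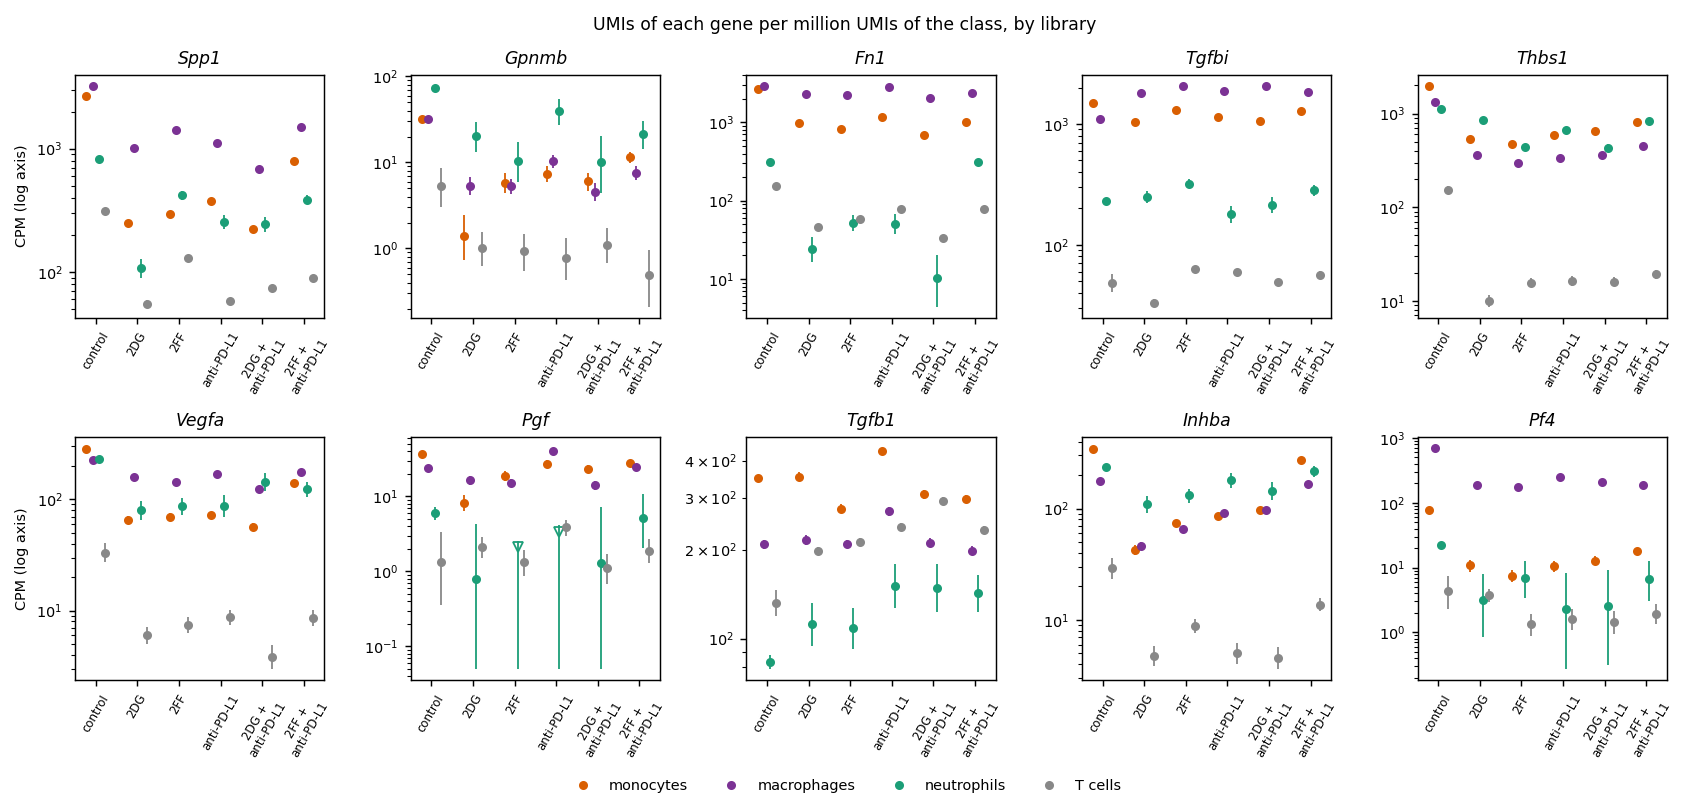
Each panel plots 1 gene as CPM on a log axis for the 6 libraries in monocytes, macrophages, neutrophils and T cells, with 95% Poisson intervals as vertical lines (drawn down to 0.05 CPM where they reach 0); open triangles stand for 0 UMIs and mark the level of 3 UMIs. Spp1, Gpnmb, Thbs1, Vegfa, Inhba and Pf4 sit highest in the control library in monocytes and in macrophages, while Tgfbi in macrophages sits lowest there.

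Among the ligands, Vegfa and Inhba were lower in monocytes of every treated library, and 2FF plus anti-PD-L1 lay closest to the control. Vegfa in monocytes was 283 CPM in the control library, 65.4 after 2DG, 70.1 after 2FF, 72.8 after anti-PD-L1, 57.0 after 2DG with anti-PD-L1 and 140 after 2FF with anti-PD-L1. In macrophages Vegfa ranged only from 124 to 175 CPM in treated libraries beside 228 CPM in the control. Inhba in monocytes was 343 CPM in the control library, 42.3 after 2DG, 73.8 after 2FF, 85.5 after anti-PD-L1, 96.3 after 2DG with anti-PD-L1 and 274 after 2FF with anti-PD-L1. The activin subunit gene thus spanned 8.10-fold (7.28 to 9.03) between the control and 2DG libraries but 1.25-fold (1.20 to 1.30) between the control and 2FF plus anti-PD-L1. Macrophages repeated this at a lower level, with Inhba at 176 CPM in the control library, 46.1 after 2DG and 165 after 2FF with anti-PD-L1, and the other 3 libraries between 65.5 and 96.4 CPM. Outside the 3 main classes, Inhba reached 306 and 484 CPM in plasmacytoid dendritic cells of the 2FF and 2FF plus anti-PD-L1 libraries, but these rested on 25 and 21 cells. In the dendritic class as a whole, 1 cell held 74 of the 80 Inhba UMIs after 2FF. After 2FF with anti-PD-L1, 1 cell held 97 of the 176.

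Pgf in macrophages and Tgfb1 in monocytes and macrophages were highest in the anti-PD-L1 library rather than the control. Pgf, which encodes a ligand of VEGF receptor 1, was 40.6 CPM (37.1 to 44.3) in macrophages of the anti-PD-L1 library and stood at 23.5 in the control, 16.5 after 2DG, 15.2 after 2FF, 14.1 after 2DG with anti-PD-L1 and 24.6 after 2FF with anti-PD-L1. In monocytes Pgf was 36.7 CPM in the control library and 8.21 CPM in that of 2DG, with 18.6 to 28.2 CPM in the remaining 4. Tgfb1 was nearly level in macrophages, at 199 to 269 CPM, and in monocytes, at 275 to 430 CPM. NK cells carried more Tgfb1 than either, at 368 CPM in the control library, from 26 cells, and 582 to 835 CPM elsewhere, and T cells carried 132 to 293 CPM. A T cell level is therefore no background for Tgfb1.

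Pf4 was largely a macrophage transcript. It stood in macrophages at 692 CPM in the control library, 188 after 2DG, 175 after 2FF, 251 after anti-PD-L1, 211 after 2DG with anti-PD-L1 and 189 after 2FF with anti-PD-L1. Monocytes held 76.9 CPM in the control library and 7.46 to 17.8 CPM elsewhere, and T cells 1.33 to 4.28 CPM. A Pf4 UMI was found in 54.9% (52.3% to 57.5%) of control macrophages and in 23.0% to 26.2% of the others, or 26.5% against 8.01% to 10.7% at 1000 UMIs per cell. Pf4 is also an abundant platelet transcript, and the 8-gene platelet list summed to 57.8 CPM in control macrophages against 3.29 to 12.6 CPM elsewhere. Of that sum, 55.3 CPM was Ppbp, another platelet chemokine gene, while Gp1bb was at 0 in all 6 libraries and Itga2b, Gp9, Gp1ba, Gp5, Treml1 and Tubb1 were each at 2.0 CPM or less. The part of platelets in the Pf4 levels was not tested.

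Set against the control library, members past 2-fold were lower in the treated library in every class and comparison; none was higher. A member or gene was counted when the ratio of CPM with 5 CPM added reached 2-fold and both libraries together held at least 50 of its UMIs. Because these comparisons chose the members, the counts are a description and the shares of all genes are printed only as background. Here and below, a share called background counts genes past 2-fold in either direction, whereas the member counts against control are of lower members. Genes lower than control alone made up 1.02% to 5.84% over the comparisons and classes. After 2DG, 8 of 10 members were lower in monocytes (background 7.43% of genes past 2-fold in either direction), 5 of 10 in macrophages (2.29%), 6 of 10 in neutrophils (12.0%) and 6 of 9 in dendritic cells (1.96%). After 2FF, 7 were lower in monocytes (6.63%), 5 in macrophages (3.36%), 6 in neutrophils (12.0%) and 5 in dendritic cells (3.91%). The median gene was itself 0.10 to 0.13 log2 higher than in the control in monocytes of the 2DG, 2FF and anti-PD-L1 libraries, and up to 0.20 in neutrophils. Some members reached the 50 UMIs through the control library alone. In neutrophils these were Pf4 and Pgf, with 365 and 98 control UMIs, and in dendritic cells Pf4, with 51. A filter passed through the control in this way favours calls of lower, most of all in neutrophils.

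After anti-PD-L1 alone, 7 members were lower in monocytes (background 6.36%), 4 in macrophages (2.16%), 5 in neutrophils (9.56%) and 4 in dendritic cells (2.98%). With 2DG plus anti-PD-L1 the counts were 7 in monocytes (7.74%), 4 in macrophages (4.10%), 5 in neutrophils (11.7%) and 3 in dendritic cells (7.62%). With 2FF plus anti-PD-L1 they were 5 in monocytes (4.81%), 4 in macrophages (2.67%), 3 in neutrophils (7.23%) and 4 in dendritic cells (6.57%). Spp1, Gpnmb, Thbs1 and Pf4 made up the 4 in macrophages each time, and Inhba was the fifth after 2DG and after 2FF. All 5 comparisons share the single control mouse, so they are not separate observations of it. In control dendritic cells, Thbs1 at 130 CPM lay below the 153 CPM of control T cells, and with the T cell level subtracted its direction turned in 3 of the 5 comparisons.

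**Figure D2:**
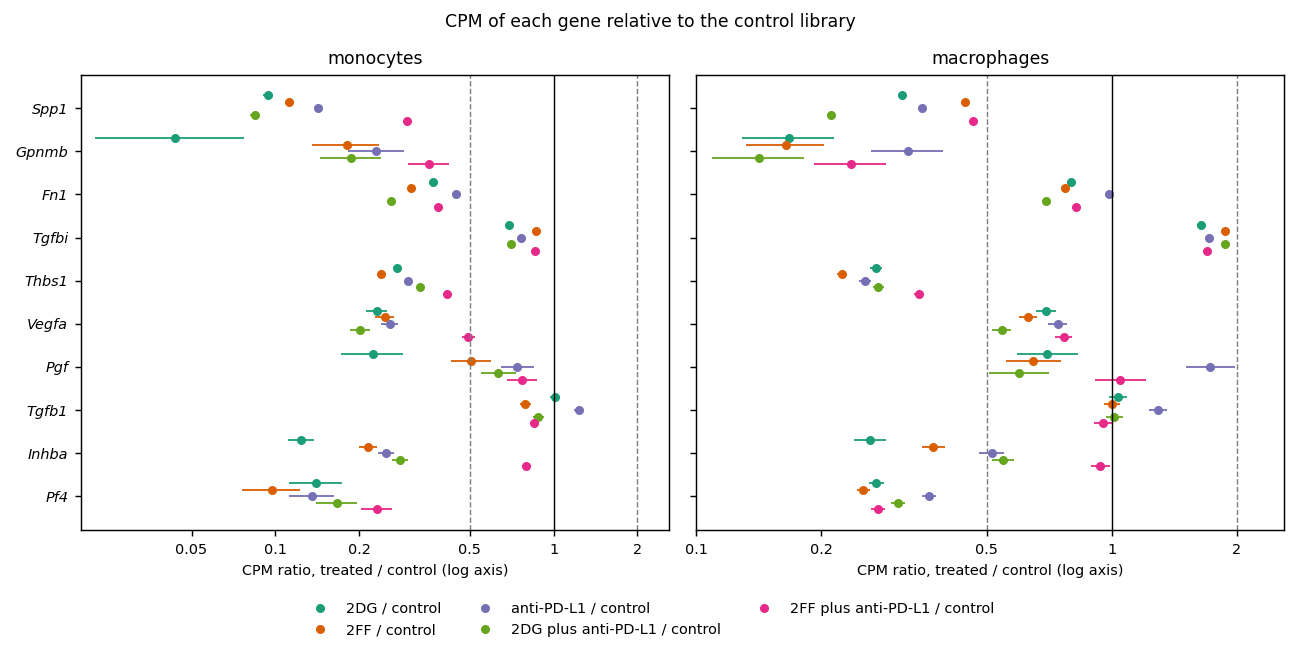
Points give the ratio of CPM in each treated library to the control library on a log axis, with 95% counting intervals, for the 10 genes in monocytes (left) and macrophages (right); dashed lines mark 0.5 and 2. Spp1 in monocytes lies between 0.0845 and 0.298, and Tgfbi in macrophages is the one gene above 1 in all 5 comparisons with no interval reaching 1.

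**Figure D3:**
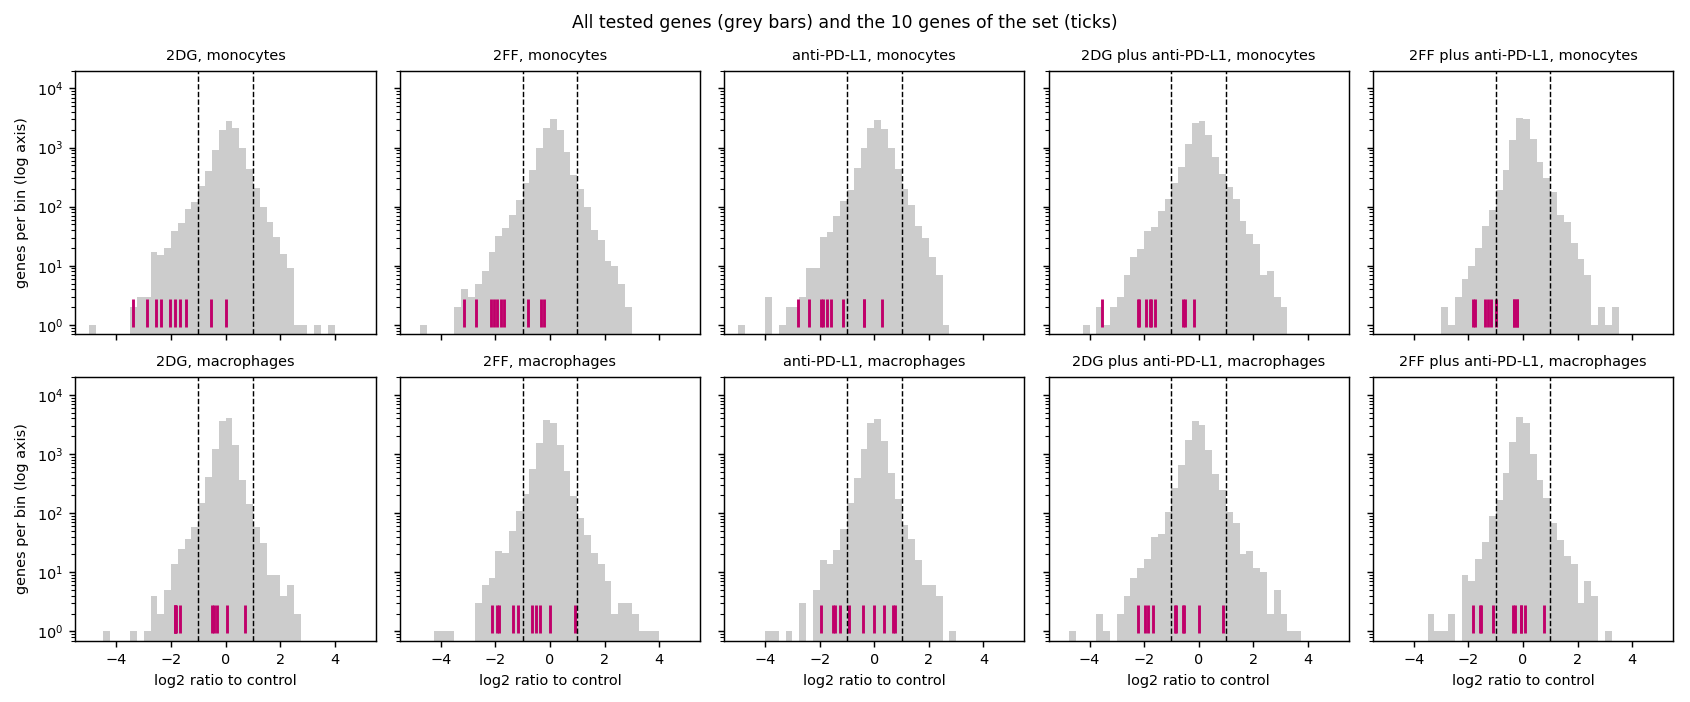
Grey bars count all tested genes by their log2 ratio to control (5 CPM added, bins of 0.25, log axis), and ticks mark the members, in monocytes (top) and macrophages (bottom); dashed lines mark 2-fold. In monocytes after 2DG, 8 of the 10 ticks lie left of the lower line, where 3.42% of all tested genes lie.

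The monocyte values were also read without non-classical cells, whose share differed between the libraries. Without the cells that had an Ace or Treml4 UMI, a setting chosen after the data were seen, the log2 ratio of Spp1 to control in monocytes was -2.66 after 2DG, -2.66 after 2FF, -2.30 after anti-PD-L1, -3.31 after 2DG with anti-PD-L1 and -1.45 after 2FF with anti-PD-L1. With all monocytes these had been -3.38, -3.13, -2.80, -3.53 and -1.74. Fn1 in monocytes dropped below 2-fold in that setting after 2DG and after anti-PD-L1, at log2 ratios of -0.98 and -0.74, and Gpnmb after 2FF with anti-PD-L1, at -0.87. In neutrophils, Fn1 of the 2FF plus anti-PD-L1 library equalled the control (310 CPM in both), while the other 4 libraries held 10.2 to 51.7 CPM. That value rested on cells with 3 or more markers of another lineage: without them its log2 ratio to the 2FF library turned from positive to -0.82 and to the anti-PD-L1 library to -0.50. In the 2FF plus anti-PD-L1 library, 1 neutrophil held 256 of the 420 Fn1 UMIs.

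Between the combined and the single treatments fewer members passed 2-fold than against the control, and Spp1 and Inhba did so in monocytes of 2FF plus anti-PD-L1 in both of its comparisons. Against anti-PD-L1 alone, 2FF plus anti-PD-L1 had 2 members higher in monocytes, Spp1 at 2.09-fold (2.02 to 2.16) and Inhba at 3.20-fold (2.99 to 3.43), where 0.827% of all genes passed 2-fold in either direction. Vegfa followed at 1.92-fold (1.78 to 2.08) without passing. No member passed in macrophages (background 0.491%), where Spp1 was 1.33-fold and Inhba 1.82-fold higher and Pgf was 0.607-fold. The Spp1 log2 ratio in monocytes ranged from 0.85 to 1.20 over the alternative settings, and that of Inhba from 1.41 to 1.76. Without monocytes that had an Ace or Treml4 UMI, Spp1 was at 0.85, so it no longer passed 2-fold. Such cells were 39.0% of monocytes after 2FF with anti-PD-L1 and 50.3% after anti-PD-L1 alone.

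For 2DG plus anti-PD-L1 against anti-PD-L1, no member passed 2-fold in monocytes (background 0.529%), where Spp1 was 0.594-fold (0.566 to 0.623) and Inhba 1.13-fold (1.03 to 1.23). In macrophages 1 member passed (background 0.989%): Pgf was 0.347-fold (0.295 to 0.407), while Spp1 was 0.605-fold. The Pgf value rests on the anti-PD-L1 library, which held the highest Pgf of all.

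Against the glycan inhibitor alone, adding anti-PD-L1 to 2FF left 2 members higher in monocytes (background 0.615%), Spp1 at 2.65-fold (2.55 to 2.76) and Inhba at 3.71-fold (3.43 to 4.01), and 1 in macrophages (background 0.375%), Inhba at 2.52-fold (2.36 to 2.69). Adding anti-PD-L1 to 2DG left 2 higher in monocytes (background 1.01%), Inhba at 2.27-fold (2.02 to 2.57) and Pgf at 2.83-fold (2.17 to 3.74), and none in macrophages (background 0.773%). Inhba was thus higher in both combined libraries than in the matching single inhibitor, in monocytes and in macrophages, where the 2DG pair gave 2.09-fold (1.90 to 2.30) and fell short only once 5 CPM was added. Spp1 was not, since adding anti-PD-L1 to 2DG gave 0.898-fold in monocytes and 0.674-fold in macrophages.

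Neutrophils and dendritic cells of the treated libraries were few, and members past 2-fold there rested on fewer UMIs. In neutrophils Fn1 alone passed in 3 of the 4 comparisons: it was 0.202-fold (0.0822 to 0.433) for 2DG plus anti-PD-L1 against the antibody alone (background 4.45%), and for 2FF plus anti-PD-L1 it was 6.11-fold (4.48 to 8.50) over the antibody alone (background 3.54%) and 5.9995-fold (4.68 to 7.79) over 2FF (background 4.61%, where the median gene was 0.13 log2 lower). Of the 420 Fn1 UMIs in neutrophils of 2FF plus anti-PD-L1, 256 lay in 1 cell. The 2 higher Fn1 ratios turned below 1 without cells carrying markers of another lineage, as given above. For 2DG plus anti-PD-L1 over 2DG, Spp1 alone passed in neutrophils, at 2.28-fold (1.82 to 2.86; background 3.67%). In dendritic cells Inhba was higher in all 4 comparisons. Against anti-PD-L1 it was 3.73-fold (2.49 to 5.69) with 2DG added, where Thbs1 was also higher at 3.34-fold (background 1.86%), and 7.83-fold (5.43 to 11.6) with 2FF added, where Pf4 was lower, at 3 UMIs against 77 (background 1.36%). Of these 77 Pf4 UMIs, 68 lay in 1 cell. Over 2DG alone, 2DG plus anti-PD-L1 had Inhba at 8.84-fold, Thbs1 at 3.90-fold and Tgfbi at 2.07-fold, while Spp1 was 0.350-fold (background 3.71%). A single dendritic cell of the 2DG library held 317 of its 560 Spp1 UMIs. Over 2FF alone, 2FF plus anti-PD-L1 had Inhba at 2.69-fold (background 0.733%), and the plasmacytoid cells named above are part of that class. In the dendritic cells of these libraries, 1 cell held 74 of the 80 Inhba UMIs after 2FF. With anti-PD-L1 added, 1 cell held 97 of the 176.

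**Figure D4:**
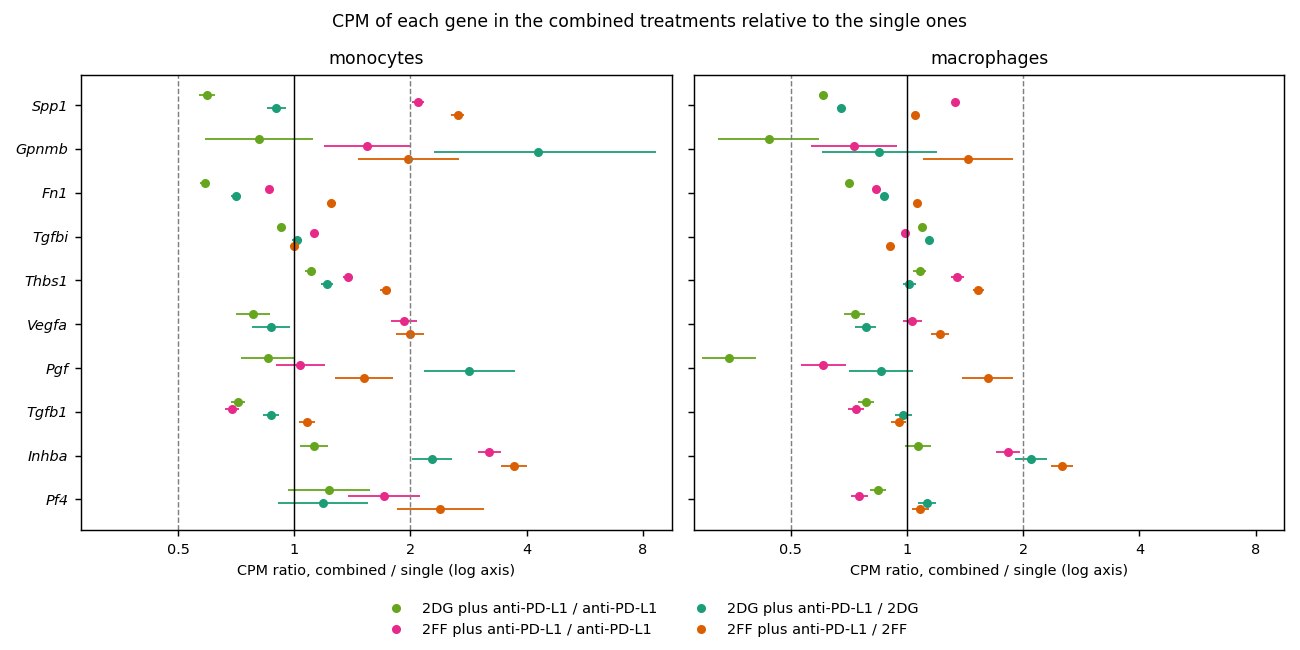
Points give the ratio of CPM in each combined treatment to anti-PD-L1 alone or to its glycan inhibitor alone on a log axis, with 95% counting intervals, in monocytes (left) and macrophages (right); dashed lines mark 0.5 and 2. In monocytes Spp1 lies at 2.09 and 2.65 for 2FF plus anti-PD-L1 but at 0.594 and 0.898 for 2DG plus anti-PD-L1; Gpnmb and Pf4 points past a line were not counted, since 5 CPM was added for the call.

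Members differed in how far their UMIs were concentrated within a class, Spp1 more so than Tgfb1. The 10% of macrophages with the most Spp1 held 61.6% of its UMIs in the control library and 69.5% to 74.6% in the others. In monocytes the top 10% held 67.4% in the control library, 87.8% after 2FF with anti-PD-L1 and 95.5% to 98.7% in the remaining 4. The median monocyte had 2 Spp1 UMIs in the control library and 0 in every treated library. Fewer treated monocytes had an Spp1 UMI at all, which in itself raises the share held by the top 10%. A single control monocyte reached 1062 Spp1 UMIs. Thbs1 was spread more widely, its top 10% of monocytes holding 45.1% to 61.7% of the UMIs, and Tgfb1 more widely still, at 31.7% to 35.04%.

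Vegfa, Pgf and Inhba were detected in the same cells more often than the product of their shares. With each cell thinned to 1000 UMIs, cells with both Pgf and Inhba exceeded that product 3.76-fold to 5.15-fold in macrophages of the 6 libraries, and 2.32-fold to 2.59-fold before thinning, from 19 to 70 cells with both. Vegfa with Pgf gave 2.06-fold to 2.59-fold and Vegfa with Inhba 1.87-fold to 2.88-fold after thinning. Spp1 with Inhba gave 1.48-fold to 2.31-fold, and Spp1 with Vegfa 1.28-fold to 1.54-fold. Fn1 with Tgfbi, both detected in most macrophages, stayed at 0.987-fold to 1.07-fold. Pf4 was not part of this group in the same way: Inhba with Pf4 ranged from 0.727-fold to 1.70-fold.

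In monocytes the ratio of joint detection to the product of the shares was higher in the treated libraries than in the control. Spp1 with Inhba exceeded the product 1.72-fold in the control library, 2.83-fold after 2FF with anti-PD-L1 and 4.91-fold to 8.23-fold in the other 4. Spp1 with Vegfa gave 1.34-fold, 2.05-fold and 3.06-fold to 4.89-fold in the same libraries, and Vegfa with Inhba 1.70-fold, 2.64-fold and 3.56-fold to 5.95-fold. Only 36 monocytes of the 2DG library had both Spp1 and Inhba. In the control library, 423 of the 498 monocytes with an Inhba UMI also had Spp1, before thinning. Rare genes can reach higher ratios than common ones, and the shares of these genes were lower in the treated libraries. The higher ratios there therefore do not show a closer joint detection. Other pairs were high as well in control monocytes. Gpnmb with Inhba exceeded the product 3.30-fold, from 72 cells with both, and Gpnmb with Pgf 2.70-fold, from 23 cells. Spp1 with Pf4 gave 1.76-fold. Gpnmb with Fn1, Tgfbi or Tgfb1 lay below the product, at 0.598-fold to 0.741-fold.

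**Figure D5:**
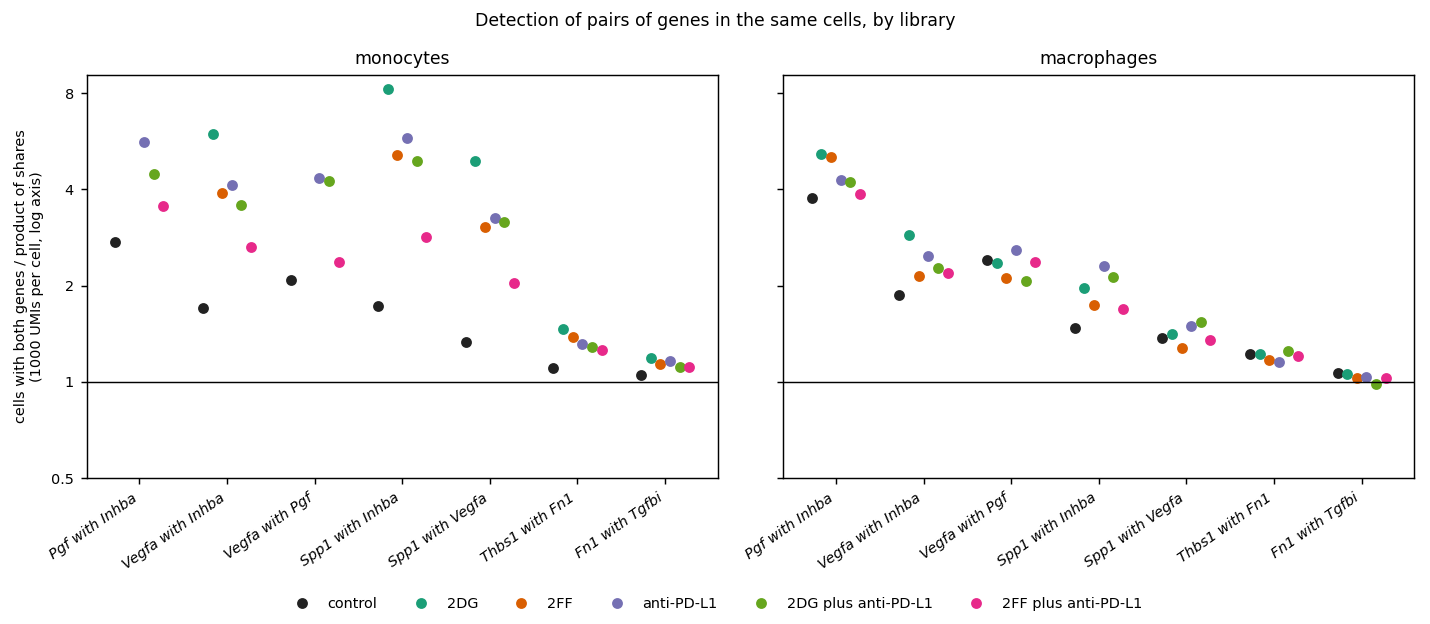
Points give, for 7 pairs of genes, the share of cells with both genes divided by the product of the 2 single shares, at 1000 UMIs per cell and on a log axis, for each library in monocytes (left) and macrophages (right); pairs are shown where both genes had a UMI in at least 5% of cells. Pgf with Inhba lies at 3.76 to 5.15 in macrophages, and Spp1 with Inhba in monocytes at 1.72 in the control library and 2.83 to 8.23 in the others.

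Genes of the same pathways were read from lists chosen with earlier results in view. Of 15 hypoxia-induced genes, 14 could be compared in monocytes and none was higher than control by 2-fold, while 9 were lower after 2DG, 7 after 2FF, 6 after anti-PD-L1, 10 after 2DG with anti-PD-L1 and 5 after 2FF with anti-PD-L1, where 1.61% to 3.42% of all genes were lower. Their median log2 ratio was -0.77 to -1.23 over the 5 libraries, beside 0.01 to 0.13 for all genes. Egln3, a prolyl hydroxylase that marks HIF for decay, and Ero1l, an endoplasmic reticulum oxidase, had the lowest ratios in every library. Egln3 in monocytes was 313 CPM in the control library, 39.0 after 2DG, 42.9 after 2FF, 68.0 after anti-PD-L1, 28.8 after 2DG with anti-PD-L1 and 60.4 after 2FF with anti-PD-L1. Hk2, which encodes a hexokinase, and Kdm3a, a histone demethylase gene, lay at the other end in monocytes, with log2 ratios of -0.46 to 0.01. In macrophages 2 or 3 of the 15 were lower (1.02% to 1.99% of all genes), with a median log2 ratio of -0.28 to -0.68, and in neutrophils 4 to 9 of 13 (3.02% to 5.84% of all genes).

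The 10 genes often described with Spp1 in tumor macrophages did not move one way. Of all 10 in monocytes, 4 or 5 were lower and 2 higher than control in each treated library. Of all genes there, 1.61% to 3.42% were lower and 3.19% to 4.48% higher. Cd9, a tetraspanin gene, was 561 CPM in control monocytes and 88.8 to 183 CPM elsewhere, and Arg1, which encodes arginase 1, was 4061 CPM against 679 to 1635 CPM. The fatty acid binding protein genes Fabp5 and Fabp4 were the 2 higher ones: Fabp5 stood at 288 CPM in control monocytes and 638 to 1085 CPM elsewhere. In macrophages 1 was higher (1.02% to 2.10% of all genes), Fabp5, at 286 CPM in the control library and 701 to 1774 CPM in the others. Lower were 2 or 3 (1.02% to 1.99% of all genes), among them Hmox1 (heme oxygenase 1) at 883 against 204 to 403 CPM.

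Other ligands of vessels differed in direction. Of 16 angiogenic ligand genes, 8 or 9 could be compared in monocytes, where 4.81% to 7.74% of all genes passed 2-fold in either direction. Vegfc, a ligand of lymphatic vessels, was 4.3 CPM in control monocytes and 15.1 to 31.8 CPM elsewhere, past 2-fold in all 5 comparisons, while Adm (adrenomedullin) was highest in the control as Vegfa was, at 9.8 CPM against 0.5 to 2.9 CPM. Hgf, the hepatocyte growth factor gene, was 10.997 against 23.9 to 38.3 CPM. In macrophages 0 to 3 of 11 passed 2-fold, where 2.16% to 4.10% of all genes did in either direction. Of the 5 VEGF and PlGF receptor genes only Flt1, the receptor of placental growth factor, passed in either class, after anti-PD-L1 (background 2.16% in macrophages and 6.36% in monocytes). It was 56.9 CPM in macrophages and 68.1 CPM in monocytes, beside 18.8 and 16.7 CPM in the control.

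Receptors and partners of the matrix and TGF-beta members changed place less. As background to the calls below, 4.81% to 7.74% of all genes passed 2-fold against control in either direction in monocytes. In macrophages 2.16% to 4.10% did, so a few calls in a list lie near what any genes would give. Of 11 receptor genes for osteopontin, thrombospondin-1 and fibronectin, Itga4 (integrin alpha 4) was higher in monocytes of all 5 treated libraries, at 363 to 627 CPM against 166 CPM, and Sdc4 (syndecan 4) lower after 2DG and after anti-PD-L1, at 190 and 253 against 529 CPM. Cd36, a receptor of thrombospondin-1, was 98.7 CPM in control macrophages and 25.8 to 47.6 CPM elsewhere. Cd44, a receptor of osteopontin, was within 2-fold throughout, at 836 to 1547 CPM in macrophages and 2003 to 2876 CPM in monocytes. Of the 7 TGF-beta and activin receptor genes, Tgfbr3 (betaglycan) was higher in all treated monocytes, at 15.5 to 31.7 CPM against 3.7 CPM, and Tgfbr1 in macrophages was lower after 2FF, at 103 against 216 CPM. Of 16 ligands, carriers and inhibitors of that family, 7 or 8 could be compared in monocytes. Only Ltbp1 passed, after 2FF with anti-PD-L1 (background 4.81%), at 7.0 against 0.8 CPM. In macrophages Gdf15 was 15.9 CPM in the control library and 3.1 to 7.3 CPM elsewhere, and Tgfb2 and Ltbp1 stood out after 2DG with anti-PD-L1, at 17.4 and 42.5 CPM against 1.6 and 4.9 CPM.

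Markers of other sources were read in the same cells. The 8 genes of large peritoneal macrophages summed to 42.0 CPM in control macrophages and to 46.0, 24.2, 71.2, 233 and 130 CPM after 2DG, 2FF, anti-PD-L1, 2DG with anti-PD-L1 and 2FF with anti-PD-L1. Of these, Prg4 was 11.4 CPM in control macrophages and 101 CPM after 2DG with anti-PD-L1, the library with the highest Tgfb2 and Ltbp1. Fibroblast genes summed to at most 4.3 CPM in macrophages and 3.6 CPM in monocytes, although Fn1, Thbs1 and Tgfbi are also fibroblast genes. In macrophages 1.02% to 1.99% of all genes were lower than control by 2-fold. Of the 10 stress genes, Hspa1a and Hspa1b were lower than control in macrophages of all 5 treated libraries (log2 ratios of -3.38 to -1.58). The whole list did not follow them. It summed to 7678 CPM in control macrophages, 9179 after 2DG with anti-PD-L1 and 7372 after 2FF with anti-PD-L1. After 2DG, 2FF or anti-PD-L1 alone it summed to 5989 to 6163 CPM. The part of these sources in the members' levels was not tested.

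Over the 24 profiles of monocytes, macrophages, neutrophils and dendritic cells in the 6 libraries, the genes most like each member in log2 CPM were drawn from 7854 genes. Classes and libraries are shared between these profiles, so the Pearson values describe the profiles and carry no test. Spp1 lay closest to Furin (0.93), F7 (0.92) and Itgav (0.92), Gpnmb to Ero1l (0.94), Fnip2 (0.93) and Npepps (0.93), and Vegfa to Bnip3 (0.93), Cstb (0.93) and Hmox1 (0.93). Fn1 lay closest to Arg1 (0.98), Slc7a8 (0.97) and Slc7a2 (0.96). Thbs1 lay closest to Gpat3 (0.96), Itgam (0.96) and Slc11a1 (0.95), and Inhba to Sdcbp (0.94), Mdm2 (0.91) and Osm (0.91). The neighbours were Tmem119 (0.97), Fblim1 (0.97) and Tmem37 (0.96) for Pf4, and Cmklr1 (0.97) and Ripk3 (0.97) for Tgfbi. Pgf lay closest to Tspan31, Vim and St7 (0.93 each), and Tgfb1 to Plod3 (0.93), Idh1 (0.92) and Nlrc4 (0.92). Among the members themselves the highest value was that of Spp1 with Vegfa (0.90) and the lowest that of Gpnmb with Pgf (-0.25).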

How the data were processed

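Single-cell 3' RNA sequencing libraries of 6 mice, 1 per group, were analysed. The deposited matrices hold unnormalized UMI counts, made by the authors on mm10; the file headers name Cell Ranger 7.0.0 and the submitters' processing notes 3.1.0. Version 7 counts intronic reads by default. Cells with fewer than 250 genes or over 5% mitochondrial UMIs were left out. A cell was gated to the class with the most of its 8 markers detected, given at least 3, a lead of 2 over other lineages and of 1 within its own; no member was a marker. Doublets were not called, and cells with 3 or more markers of another lineage were removed in an alternative. UMIs were summed per class and library and given as CPM. Ratios used CPM + 5 over genes with 50 UMIs in both libraries together. With 1 library per group no test was made, and the alternatives were another pseudocount, no minimum, TMM factors (edgeR 4.0.16), median centring, other gates, limits and weights. The intervals were checked only on simulated Poisson counts, the model they assume. That check cannot show how they hold where single cells carry much of a gene's UMIs. The members, gene lists and markers were chosen with earlier results of these data known. Named genes were the members, the list genes with the 2 highest and 2 lowest ratios, and the 3 genes most correlated with each member in log2(CPM + 5); other examples were chosen after their values were seen. For Tgfbi, 1 of the 3 is not reported here. Genome annotation and promoters are of GRCm38 (GENCODE M21, RefSeq). Reads antisense to Fn1, Thbs1 and Inhba belong to annotated genes of the opposite strand; Cell Ranger counts by strand. Python 3.11.15, NumPy 2.4.6 and SciPy 1.17.1 were used.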

Additional observations from a re-analysis of the deposited data

Results flagged for a closer look

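Spp1 differed in direction between classes when anti-PD-L1 was added to 2DG: its log2 ratio was 1.15 in neutrophils and -1.37 in dendritic cells, a gap of 2.52 that was not tested. The dendritic value rested largely on 1 cell of the 2DG library, which held 317 of its 560 Spp1 UMIs in that class. Lymphoid cells, which entered no comparison, held several members at more than 2-fold the control level. Tgfb1 in T cells was 293 CPM after 2DG with anti-PD-L1 against 132 CPM in the control. Tgfb1 in NK cells was 835 CPM after 2DG with anti-PD-L1 and 762 CPM after 2FF with anti-PD-L1, against 368 CPM from 26 control cells. Tgfbi in B cells was 117 CPM after 2DG and 136 CPM after 2FF, against 28.3 CPM from only 66 control cells. Tgfbi in NK cells was 47.4 CPM after 2FF, 59.5 CPM after anti-PD-L1 and 40.3 CPM after 2DG with anti-PD-L1, against 11.5 CPM. After 2DG with anti-PD-L1, NK cells also held 22.4 CPM of Thbs1 against 5.75 CPM, and 84.6 CPM of Vegfa against 34.5 CPM. The control NK levels of Thbs1, Tgfbi and Vegfa rest on 1, 2 and 6 UMIs. Spp1 in NK cells was 373 CPM after 2FF with anti-PD-L1, against 161 CPM.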

How the results depend on the processing

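Counts of members past 2-fold against control, summed over the 4 classes, were 25 after 2DG, 23 after 2FF, 20 after anti-PD-L1, 19 after 2DG with anti-PD-L1 and 16 after 2FF with anti-PD-L1, and moved by no more than 1.5 times under the 12 alternatives. Single log2 ratios of members, over all comparisons, often left their own counting interval. With TMM factors 144 did and 193 stayed inside, and with the stricter gate 163 did and 174 stayed. With every cell weighted alike 136 did and 201 stayed, while with a pseudocount of 1 CPM all 337 stayed. The printed intervals therefore do not cover the choice of processing. Those between treated libraries were small and moved more. For 2DG plus anti-PD-L1 against the antibody alone the count was 4, and became 1 with a pseudocount of 20 CPM and 7 with the T cell level subtracted; over 2DG it was 7, and became 3 and 11. For 2FF plus anti-PD-L1 against the antibody alone it was 5, and 8 with the T cell level subtracted; over 2FF it was 5, and 3 with monocytes and macrophages pooled. The subtraction also covered Tgfb1, for which a T cell level is no background, so these larger counts include Tgfb1. Its log2 ratios to control became -3.51 in monocytes and -4.02 in macrophages after 2DG with anti-PD-L1. After anti-PD-L1 alone they became -0.18 and -1.22. With cells carrying markers of another lineage removed, the log2 ratio of Fn1 in neutrophils for 2FF plus anti-PD-L1 turned to -0.50 over the antibody alone and -0.82 over 2FF. With the T cell level subtracted, log2 ratios to control in dendritic cells turned to 0.28 for Thbs1 and 0.071 for Vegfa after 2DG, 0.19 for Inhba after anti-PD-L1, and 2.68 and 0.75 for Thbs1 after 2DG with anti-PD-L1 and 2FF with anti-PD-L1. The cause was not tested beyond these settings; that subtraction and the setting without Ace or Treml4 monocytes were chosen after seeing the data. No paired analysis was possible because each group held 1 mouse, and none could be left out. Depth limited Gpnmb and Pgf, and neutrophils of treated libraries, most.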
